A study of Mus musculus with 2 samples.

Results

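Atp1b1, Atp1b2 and Atp1b3, the genes of 3 beta subunits of the sodium-potassium ATPase (the sodium pump), were described across the cell types of the mouse stria vascularis. They were taken by symbol from the list of 48816 features, in which each of the 3 symbols stood on 1 entry, so the members were 3 of 48816 genes. The RNA of single nuclei from the stria vascularis of CBA/J mice, an inbred strain, at postnatal day 30 (P30) had been captured in 2 libraries, with no genotype or agent other than the preservation given in the labels. In the MethFix library the isolated nuclei were fixed in methanol, and in the RNAlater library the dissected tissue lay in RNAlater before nuclei were isolated. Each library pooled several animals, between 5 and 6 mice for MethFix and about 10 for RNAlater by the labels (the study's methods give fewer for RNAlater), so no value belongs to a single mouse.

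The sodium pump exports sodium and imports potassium at the cost of ATP. An alpha subunit carries the catalytic and transport sites, and a beta subunit, a glycoprotein that spans the membrane once, is needed for folding and delivery of the alpha subunit to the plasma membrane. In the stria vascularis, marginal cells face the endolymph and take up potassium through the pump and the cotransporter NKCC1 at their basolateral side, intermediate cells are melanocyte-derived and carry the potassium channel Kcnj10, and basal cells seal the tissue towards the spiral ligament. Root and spindle cells lie at the edges of the stria, and Reissner's membrane bounds the endolymph on the opposite side.

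The MethFix matrix held 4748 barcodes with 21027671 unique molecular identifiers (UMIs, 1 per captured RNA molecule), and the RNAlater matrix held 3868 barcodes with 17681824 UMIs. After filters on depth, mitochondrial share and doublets, 3372 MethFix nuclei (median 3498.5 UMIs) and 2311 RNAlater nuclei (median 4702 UMIs) were kept. Of the barcodes, 3323 stood in both matrices, 70.0% of those of MethFix and 85.9% of those of RNAlater. All of the 2047 barcodes that had one of the classes below in both libraries had the same class in both. Over the 522 intermediate nuclei found in both, the Atp1b1 counts of the 2 matrices had a Pearson correlation of 0.93 and the total counts one of 0.99. The 2 libraries were therefore counted as 1 sample, no test was possible, and no p-value is given. Intervals are exact 95% intervals that cover counting error only, Poisson for levels, binomial for shares and conditional binomial for ratios, and they say nothing of the spread between mice.

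Each library was clustered on its own, without any gene of the sodium pump list among the variable genes, and clusters were named from marker lists that hold no pump gene. The 6 classes compared were marginal-like (1105 MethFix and 670 RNAlater nuclei), intermediate-like (854 and 522), basal-like (750 and 592), root-like (86 and 82), spindle-like (97 and 56) and Reissner's membrane-like (155 and 155), written below without "like". All markers of the marginal, intermediate, basal, root and spindle lists had UMIs in their class, and 5 of the 6 Reissner's membrane markers had. The level of a gene is given as CPM, its UMIs per 1000000 UMIs of the class. As 1 UMI stands for 1 captured 3′ end, levels were not divided by length, and differences in capture between genes remain, so levels are compared between classes and not between genes.

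**Figure D1:**
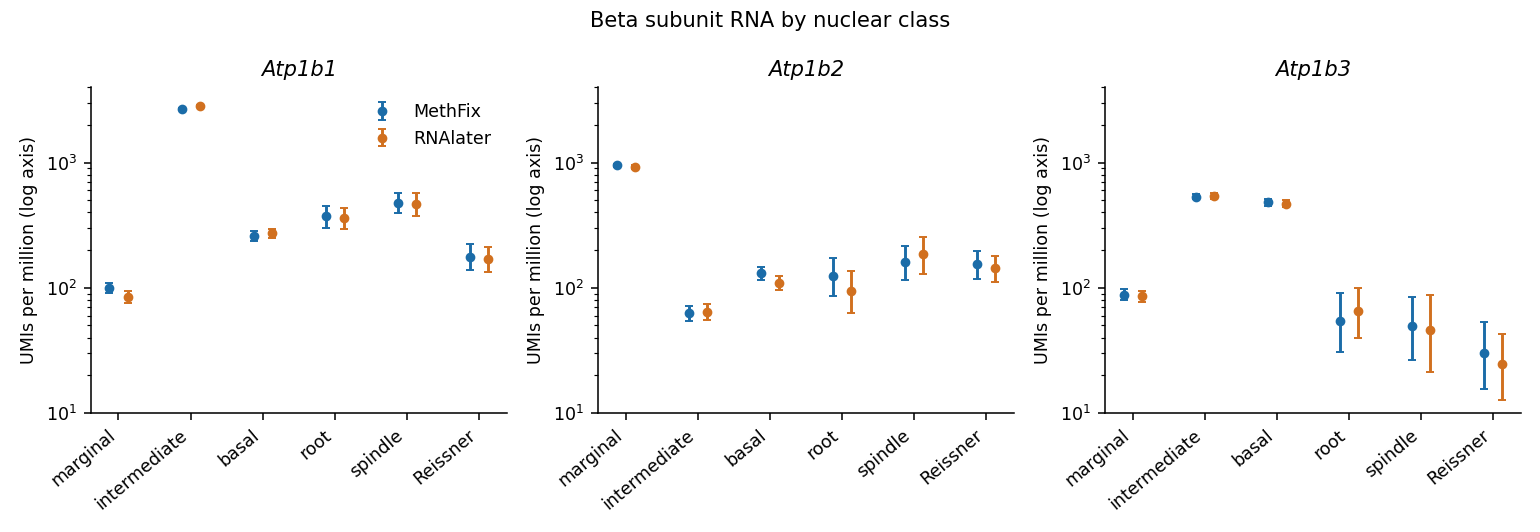
CPM on a log axis of Atp1b1, Atp1b2 and Atp1b3 in the 6 classes of nuclei, blue for MethFix and orange for RNAlater, with exact 95% Poisson intervals as bars. Atp1b1 peaked in intermediate nuclei (2696 and 2851), Atp1b2 in marginal nuclei (954 and 927) and Atp1b3 in intermediate and basal nuclei (536 and 481 in MethFix).

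Atp1b1 encodes the beta subunit that is most widespread among epithelia and neurons. Its gene (ENSMUSG00000026576.12) spans chromosome 1 from 164437109 to 164458355 on the minus strand of GRCm38 and overlaps Nme7 on the plus strand. In MethFix its level was 2696 CPM in intermediate nuclei (2641 to 2751), 477 in spindle (397 to 568), 372 in root (303 to 451), 259 in basal (238 to 282), 177 in Reissner's membrane (138 to 223) and 99.95 in marginal nuclei (91.1 to 109). In RNAlater it was 2851 in intermediate (2789 to 2913), 463 in spindle (373 to 569), 360.2 in root (296 to 434), 273 in basal (252 to 296), 169 in Reissner's membrane (135 to 210.1) and 84.2 in marginal nuclei (75.4 to 93.7). The order of the classes was the same in both libraries. Intermediate nuclei stood 5.65-fold (4.74 to 6.80) above spindle nuclei in MethFix and 6.15-fold (5.00 to 7.66) in RNAlater. They stood 27.0-fold (24.6 to 29.6) above marginal nuclei in MethFix and 33.9-fold (30.3 to 37.9) in RNAlater. The MethFix marginal level depended on how clusters were named. With each cluster named by its highest marker score alone it was 163.6 CPM (152.7 to 175.1), and the RNAlater level stayed at 84.2. That naming adds to the MethFix marginal class an otherwise unnamed cluster of 84 nuclei led by genes of cilia, with Atp1b1 at 938 CPM. Spindle and root nuclei, next to each other in this order, could not be told apart within counting error, with a ratio of 1.28 (0.98 to 1.68) for MethFix and 1.29 (0.96 to 1.71) for RNAlater, whereas the intervals of all other neighbouring ratios lay above 1.

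Atp1b2 encodes the beta subunit known from glia as an adhesion molecule. Its gene (ENSMUSG00000041329.13) spans chromosome 11 from 69599736 to 69605942 on the minus strand and overlaps no other annotated gene. In MethFix its level was 954 CPM in marginal nuclei (926 to 982), 160.2 in spindle (115 to 217), 154 in Reissner's membrane (118 to 198), 131 in basal (116 to 147), 124 in root (85.8 to 173) and 62.6 in intermediate nuclei (54.5 to 71.6). In RNAlater it was 927 in marginal (897 to 958), 185 in spindle (130 to 257), 143 in Reissner's membrane (111 to 181), 109 in basal (95.2 to 123), 94.1 in root (63.0 to 135) and 64.6 in intermediate nuclei (55.6 to 74.7). Of the 6 classes, only marginal nuclei stood apart from the rest by a wide margin. A neuron-like cluster outside them had Atp1b2 at 520 CPM in MethFix and 962 in RNAlater. The RNAlater interval of that cluster, 812 to 1132, included the marginal level of 927. Marginal nuclei were 5.96-fold (4.40 to 8.27) above spindle nuclei in MethFix and 5.00-fold (3.61 to 7.16) in RNAlater. Above intermediate nuclei they were 15.2-fold (13.3 to 17.6) in MethFix and 14.3-fold (12.4 to 16.7) in RNAlater. Between spindle, Reissner's membrane, basal and root nuclei no neighbouring ratio had an interval clear of 1 in either library. Root nuclei stood above intermediate nuclei in MethFix, at 1.98-fold (1.33 to 2.85), while the RNAlater interval of that ratio included 1 (0.949 to 2.16).

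Atp1b3 encodes a further beta subunit found at a lower level in many tissues. Its gene (ENSMUSG00000032412.8) spans chromosome 9 from 96332655 to 96364442 on the minus strand and overlaps no other annotated gene. In MethFix its level was 536 CPM in intermediate nuclei (511 to 561), 481 in basal (452 to 512), 88.1 in marginal (79.9 to 97.0), 54.6 in root (30.6 to 90.1), 49.6 in spindle (26.4 to 84.8) and 30.3 in Reissner's membrane nuclei (15.7 to 52.9). In RNAlater it was 542 in intermediate (516 to 570.1), 469 in basal (441 to 499), 85.4 in marginal (76.6 to 95.1), 64.9 in root (39.7 to 100.2), 46.3 in spindle (21.2 to 87.9) and 24.5 in Reissner's membrane nuclei (12.7 to 42.8). Intermediate and basal nuclei thus lay close together, with ratios of 1.11 (1.03 to 1.20) for MethFix and 1.16 (1.07 to 1.25) for RNAlater. Basal nuclei stood 5.46-fold (4.87 to 6.14) above marginal nuclei in MethFix and 5.49-fold (4.85 to 6.23) in RNAlater. The muscle gene Atp1b4, which completes the family, had 1 UMI in MethFix and 2 in RNAlater over the 6 classes. For Atp1b3, among marginal, root, spindle and Reissner's membrane nuclei the intervals of all neighbouring ratios included 1, on 9 to 20 UMIs in each of the root, spindle and Reissner's membrane classes.

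Atp1b1 and Atp1b3 were both highest in intermediate nuclei, Atp1b3 by only 1.11-fold in MethFix and 1.16-fold in RNAlater over basal nuclei. The bases before the starts of both genes are shown to compare them. They are RefSeq promoter windows on GRCm38.p6, the 250 bases before each start on the minus strand, and the RefSeq table used here held Atp1b1 with 1 start and Atp1b3 with 2. Capitals mark matches on either strand to the GC box with the letters GGGCGG, to the box with the letters CCAAT, to the letters TATATA, to the E-box with the letters CACGTG, or to the E-box of melanocyte genes with the letters CATGTG. The windows are chr1:164458356-164458605 for Atp1b1, chr9:96364432-96364681 for the first Atp1b3 start and chr9:96363716-96363965 for the second. The first Atp1b3 window reaches into the annotated gene, and the second lies wholly within it.
Atp1b1: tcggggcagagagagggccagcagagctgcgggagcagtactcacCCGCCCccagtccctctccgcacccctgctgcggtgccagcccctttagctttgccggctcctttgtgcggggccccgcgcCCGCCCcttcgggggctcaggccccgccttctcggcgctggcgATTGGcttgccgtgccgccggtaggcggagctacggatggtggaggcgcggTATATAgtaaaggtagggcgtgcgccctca
Atp1b3 start 1: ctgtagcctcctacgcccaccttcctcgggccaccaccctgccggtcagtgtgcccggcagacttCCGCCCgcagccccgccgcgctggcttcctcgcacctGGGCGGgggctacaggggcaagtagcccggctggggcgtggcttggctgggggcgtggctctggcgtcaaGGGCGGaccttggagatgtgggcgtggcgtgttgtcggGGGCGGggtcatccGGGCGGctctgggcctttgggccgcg
Atp1b3 start 2: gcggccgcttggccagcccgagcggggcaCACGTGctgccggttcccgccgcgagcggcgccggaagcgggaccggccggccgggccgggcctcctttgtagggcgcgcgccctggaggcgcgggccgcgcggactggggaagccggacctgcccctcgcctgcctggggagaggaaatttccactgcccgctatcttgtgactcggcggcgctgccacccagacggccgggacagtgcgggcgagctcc
The Atp1b1 window held TATATA, which begins 30 bases before the start and occurs in 5.25% of all 32851 windows of this length, a CCAAT box in reverse 81 bases before the start (33.8% of windows) and 2 GC boxes (32.7%). The first Atp1b3 window held 5 GC boxes and neither TATATA nor CCAAT. The second held CACGTG, found in 6.02% of windows, and none of the windows held CATGTG, found in 12.3%. The GC content was 70.4%, 73.6% and 76.8%. These are matches of letters only, and no binding or accessibility was measured in these nuclei.

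Against the mean of the other 5 classes, the log2 ratio of Atp1b1 in intermediate nuclei was 3.28 in MethFix and 3.40 in RNAlater, and that of Atp1b2 in marginal nuclei was 2.92 and 2.96. Against all other named classes, which include the neuron-like cluster, the Atp1b2 ratio was 2.16 for MethFix and 2.05 for RNAlater. For Atp1b3 the log2 ratio was 1.93 and 1.97 in intermediate and 1.67 and 1.62 in basal nuclei. In marginal nuclei Atp1b1 stood at -2.99 in MethFix and -3.29 in RNAlater, and Atp1b3 at -1.39 and -1.43. A gene was called higher in a class where it was at least 2-fold above this mean in both libraries, among genes with at least 50 UMIs over the 6 classes in each library. By this rule 8.87% of the 11091 genes compared were higher in marginal nuclei, 8% in intermediate, 10.1% in basal, 6.13% in root, 5.41% in spindle and 4.92% in Reissner's membrane nuclei. Of the members, Atp1b2 was called in marginal, Atp1b1 and Atp1b3 in intermediate and Atp1b3 in basal nuclei, and none in the other 3 classes. By the lower of its 2 libraries' ratios, Atp1b1 in intermediate nuclei was exceeded by 1.52% of these genes, Atp1b2 in marginal nuclei by 1.62%, and Atp1b3 by 3.45% in intermediate and 5.54% in basal nuclei.

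The share of nuclei with a UMI was highest in the same classes, also at equal depth. As counted, 97.8% of MethFix intermediate nuclei (96.6 to 98.7) and 99.8% of RNAlater ones (98.9 to 100) had a UMI of Atp1b1, against 29.4% (26.7 to 32.2) and 37.2% (33.5 to 41.0) of marginal nuclei. For Atp1b2 the shares were 88.7% (86.7 to 90.5) in MethFix and 97.3% (95.8 to 98.4) in RNAlater for marginal nuclei and 20.4% (17.7 to 23.2) and 29.7% (25.8 to 33.8) for intermediate nuclei. The median depths behind these shares were 4552 and 6088.5 UMIs for marginal and 4029.5 and 5445.5 UMIs for intermediate nuclei. With each nucleus thinned to 1000 UMIs, Atp1b1 was found in 89.1% (86.8 to 91.2) of MethFix and 90.4% (87.6 to 92.8) of RNAlater intermediate nuclei and in 8.82% (7.17 to 10.7) and 8.37% (6.38 to 10.7) of marginal nuclei. Thinning left out the shallower nuclei, 50 marginal, 37 intermediate and 91 basal nuclei of MethFix and 1, 0 and 8 of RNAlater. Atp1b2 was then found in 56.3% (53.2 to 59.3) and 59.0% (55.2 to 62.8) of marginal nuclei and in 7.59% (5.87 to 9.62) and 7.09% (5.04 to 9.64) of intermediate nuclei. Atp1b3 was found at that depth in 40.3% (36.9 to 43.7) and 40.4% (36.2 to 44.8) of intermediate nuclei, 34.0% (30.4 to 37.8) and 32.4% (28.6 to 36.3) of basal nuclei and 8.63% and 9.12% of marginal nuclei. The thinned shares of the 2 libraries lay within each other's intervals for each of these pairs, while the shares of Atp1b1 and Atp1b2 as counted were higher in the deeper RNAlater nuclei.

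No class is known to lack beta subunits, so the level that free RNA could give was set beside the low values from the other class's markers. The 10 intermediate markers stood in marginal nuclei at 0.323% (Pax3) to 31.6% (Mitf) of their intermediate level in MethFix, with a median of 1.62%, and Atp1b1 stood there at 3.71%. The 9 marginal markers stood in intermediate nuclei at 0.434% (Shroom3) to 7.63% (Kcne1) of their marginal level in MethFix, with a median of 0.883%, and Atp1b2 stood there at 6.56%. In RNAlater the medians were 1.24% and 0.634%. In RNAlater Atp1b1 stood at 2.95% and Atp1b2 at 6.97%. The low beta subunit levels in these 2 classes were thus above the median marker and inside the range of the lists. In spindle nuclei the marginal markers had a median of 22.7% of their marginal level in MethFix and 16.7% in RNAlater, and Atp1b2 stood at 16.8% and 19.99%. The markers ranged there from 0.669% (Stac) to 62.2% (Hmx2) in MethFix and from 0% (Stac) to 52.8% (Lmx1a) in RNAlater. Lmx1a stood at 195% in MethFix Reissner's membrane nuclei, so not every marginal marker is confined to marginal nuclei. The spindle median is therefore no gauge of free RNA. The part of free RNA in these levels was not tested.

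The composition of the beta subunit UMIs differed between marginal, intermediate and basal nuclei, each of which was led by another gene. In marginal nuclei Atp1b2 made up 83.5% (82.5 to 84.5) of the 5404 beta subunit UMIs in MethFix and 84.5% (83.4 to 85.6) of 4326 in RNAlater. In intermediate nuclei Atp1b1 made up 81.8% (81.1 to 82.6) of 11153 and 82.4% (81.7 to 83.2) of 9843, with Atp1b3 at 16.3% and 15.7% and Atp1b2 at 1.90% and 1.87%. In basal nuclei Atp1b3 made up 55.2% (52.9 to 57.5) of 1831 UMIs in MethFix and 55.2% (52.9 to 57.4) of 1873 in RNAlater, Atp1b1 29.8% and 32.1%, and Atp1b2 15.02% and 12.76%. Root and spindle nuclei resembled each other, with Atp1b1 at 67.5% (59.5 to 74.9) and 69.4% (61.6 to 76.4) in root and at 69.4% (62.2 to 76.1) and 66.7% (58.0 to 74.5) in spindle nuclei, on between 135 and 180 UMIs. Reissner's membrane nuclei held Atp1b1 and Atp1b2 in near equal shares, 49.0% (40.5 to 57.4) and 42.7% (34.4 to 51.2) in MethFix and 50.3% (42.4 to 58.2) and 42.4% (34.8 to 50.4) in RNAlater. These shares are of UMIs and not of protein, and as capture may differ between genes they compare classes.

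**Figure D2:**
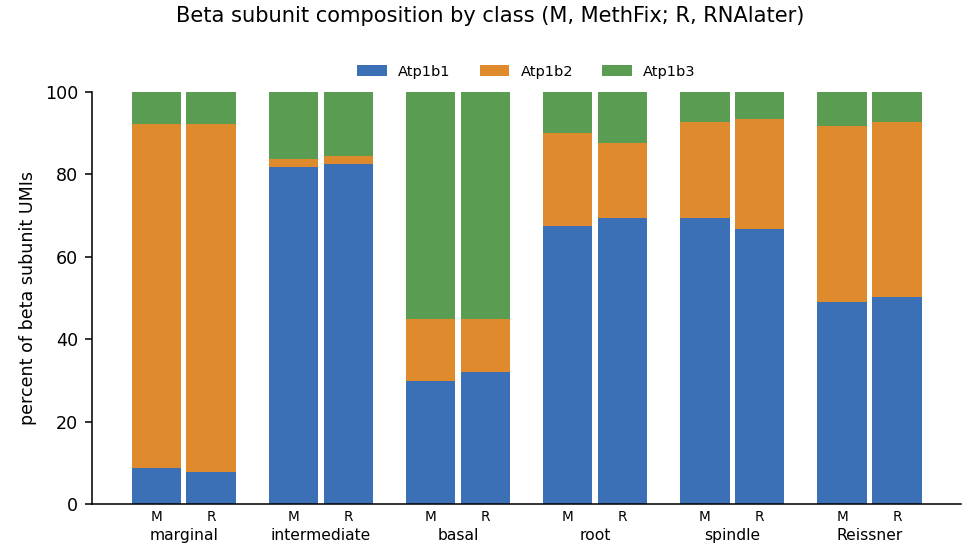
Percent of the UMIs of the 3 beta subunits held by each gene in the 6 classes, with 1 bar per library (M, MethFix and R, RNAlater). Atp1b2 filled 83.5% of the MethFix marginal bar, Atp1b1 81.8% of the intermediate and Atp1b3 55.2% of the basal one.

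The number of kinds of beta subunit found in a nucleus depended on its depth. As counted, 47.4% of MethFix marginal nuclei had 1 kind, 34.2% had 2 and 9.86% had all 3, while 21.3% of intermediate nuclei had 1 kind, 59.95% had 2 and 17.4% had all 3. In RNAlater these shares were 39.3%, 45.1% and 14.2% for marginal and 8.24%, 65.3% and 26.4% for intermediate nuclei. Of basal nuclei, 36.4% had 1 kind, 32.7% had 2 and 8.80% had all 3 in MethFix, and 35.8%, 40.2% and 13.0% in RNAlater. With nuclei thinned to 1000 UMIs, which leaves fewer kinds to be found, 1 kind was the most frequent number in each of these classes among nuclei with any. In MethFix, 562 of 1055 marginal nuclei had 1 kind, 96 had 2 kinds and 8 had all 3. Of 817 MethFix intermediate nuclei, 434 had 1 kind, 305 had 2 and 25 had all 3. Of 659 MethFix basal nuclei, 273 had 1 kind, 75 had 2 and 6 had all 3. Nuclei with more than 1 kind were thus a larger part of the intermediate than of the marginal or basal class at this depth. RNAlater had the same order, with 1, 2 and 3 kinds in 368, 63 and 6 of 669 marginal, 279, 192 and 19 of 522 intermediate and 237, 62 and 8 of 584 basal nuclei. The number of kinds found also rises with the levels of the genes, which differed between these classes, and the part of level was not tested. RNA in the same nucleus does not show that the proteins are made together.

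The basal class held 3 clusters in each library, which differed in their beta subunit levels. A cluster with Cacna1e, Scd1 and Klf4 among its leading genes (337 MethFix and 245 RNAlater nuclei) had Atp1b1 at 357 and 397 CPM and Atp1b3 at 526 and 525. A cluster led by Gm12153, Fat2 and Cacna1e (200 and 167 nuclei) had lower Atp1b1 (141 and 146) and Atp1b3 (351 and 364). A cluster led by Sorcs3 and Col27a1 (213 and 180 nuclei) had Atp1b1 at 164 and 152 and Atp1b3 at 520.2 and 469. Its score on the basal list, 3.65 and 3.84, was the lowest of the basal clusters in each library. Its score on the fibrocyte list, 2.64 and 2.33, was the highest of them. Atp1b3 thus held the most beta subunit UMIs in each of the basal clusters. The first of these clusters, highest in Atp1b1, also had a higher median mitochondrial share, 3.84% for MethFix and 3.47% for RNAlater, than the second (0.515% and 0.415%) and the third (0.466% and 0.328%). With a mitochondrial limit of 5%, Atp1b1 in all basal nuclei was 217 in MethFix and 226 in RNAlater, and with no such limit it was 292 and 277. The part of the mitochondrial share in these differences was not tested. The leading genes were ranked after clustering, by fold over all other nuclei among all genes, pump genes included. They come from the same counts as the levels and are given only to identify the clusters.

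The clusters within the marginal and within the intermediate class differed in level and had the same leading beta subunit. In intermediate nuclei, Atp1b1 ranged over the 3 clusters from 2083 to 3055 in MethFix and from 2555 to 3397 in RNAlater. The highest RNAlater value belonged to a cluster of 74 nuclei led by Bfsp2, Syt4 and Ednrb, and the lowest MethFix value to a cluster of 218 nuclei of which 19 had a barcode found in both matrices. In marginal nuclei, Atp1b2 ranged from 828 to 1274 in MethFix and from 821 to 1386 in RNAlater. The highest values belonged to a MethFix cluster of 259 nuclei with Spp1, Atp1b2 and Kcne1 among its leading genes and an RNAlater cluster of 69 nuclei with Spp1, Atp1b2 and mitochondrial genes among them. Of the root clusters, a small one of 14 MethFix and 13 RNAlater nuclei, without a UMI of the root marker Slc26a4, had Atp1b3 at 149 and 160.1 against 29.9 to 52.7 in the other root clusters, on 8 and 9 UMIs. Its Atp1b1 was lower, at 186 (89.2 to 342) for MethFix and 125 (50.1 to 257) for RNAlater against 409 to 419 in the other root clusters, and in RNAlater it had fewer UMIs of Atp1b1 (7) than of Atp1b3 (9). Without this cluster the MethFix root level of Atp1b3 was 31.7 (12.7 to 65.3) in place of 54.6.

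**Figure D3:**
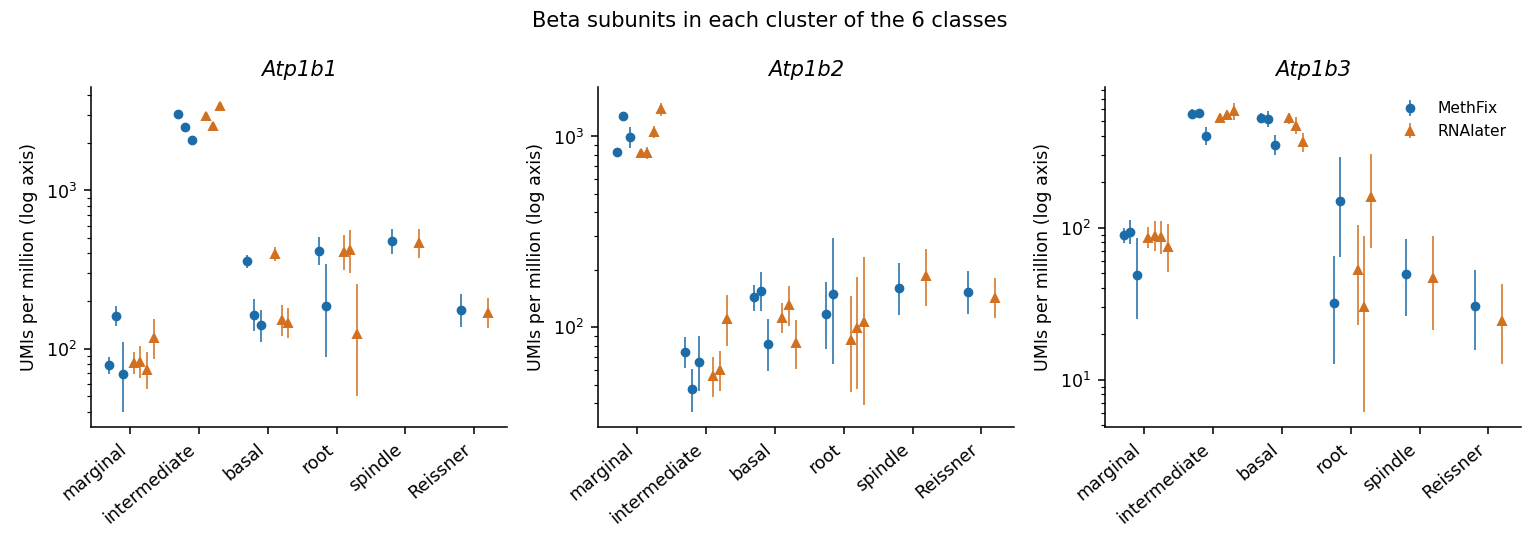
Level of each beta subunit in every cluster of the 6 classes, in CPM on a log axis with exact 95% Poisson intervals and 1 point per cluster (circles, MethFix and triangles, RNAlater). Intermediate clusters lie at the top for Atp1b1 (2083 to 3397) and marginal clusters for Atp1b2 (821 to 1386), while basal and intermediate clusters share the top for Atp1b3.

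The level of Atp1b2 in marginal nuclei moved with the mitochondrial share of the nucleus. Mitochondrial RNA lies outside the nucleus. As CPM of the UMIs that are not mitochondrial, it was 853 (822 to 885) in the 741 MethFix nuclei with under 1% mitochondrial UMIs, 1145 (1061 to 1235) in the 154 nuclei at 1% to 2%, 1394 (1297 to 1498) in the 147 nuclei at 2% to 5% and 1113 (978 to 1261) in the 63 nuclei at 5% to 10%. In RNAlater it was 849 (817 to 882) in 547 nuclei, 1225 (1119 to 1339) in 68, 1411 (1271 to 1563) in 45 and 1451 (1160.3 to 1791) in 10. The lowest bin was thus below the others in both libraries. Atp1b1 in intermediate nuclei was 2716 (2653 to 2779) in the lowest MethFix bin and 3065 (2879.6 to 3259), 2669 (2445 to 2908) and 2152 (1923 to 2400.2) in the next 3, so that it was lowest where the mitochondrial share was highest. In RNAlater it was 2775 (2711 to 2841) in 464 nuclei, 3792 (3532 to 4065) in 42 and 3448 (3046 to 3889.6) in 14. In marginal nuclei at 5% to 10%, Atp1b1 stood at 371 (295 to 461) in MethFix, against 79.4 (70.1 to 89.6) in the lowest bin. The part of cytoplasmic or free RNA in these levels was not tested.

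**Figure D4:**
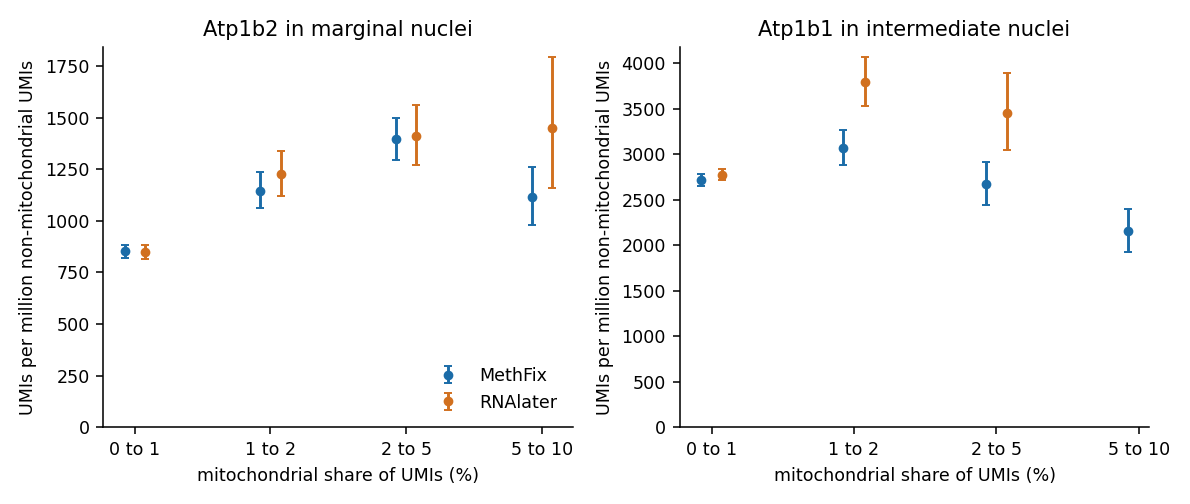
Atp1b2 in marginal nuclei (left) and Atp1b1 in intermediate nuclei (right) by the mitochondrial share of the nucleus, in CPM of the non-mitochondrial UMIs with exact 95% Poisson intervals (blue, MethFix and orange, RNAlater, with no RNAlater bin of intermediate nuclei at 5% to 10%). Atp1b2 went from 853 to 1394 over the first 3 MethFix bins.

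The marginal, intermediate and basal nuclei whose barcode stood only in the MethFix matrix had a lower level of the leading subunit of their class. Atp1b1 was at 2013 (1914 to 2116) in the 298 intermediate nuclei of this kind and at 2896 (2831 to 2962) in the 556 with a shared barcode. Atp1b2 was at 713 (658 to 772) in 336 marginal nuclei and at 1007 (976 to 1039) in 769. Atp1b3 was at 285 (215 to 370.0) in 131 basal nuclei and at 501 (470.2 to 534) in 619. Of the other subunits in these classes, only Atp1b1 in marginal nuclei was higher in this set, at 129 (106 to 155) against 93.5 (84.1 to 104). Root nuclei numbered only 4 and Reissner's membrane nuclei 11 in this set, and the latter had 1 UMI of Atp1b1 and 3 of Atp1b2, too few to place either gene first. The depth of these nuclei differed too, as the intermediate and marginal clusters with the fewest shared barcodes (19 and 18 nuclei) had medians of 2268 and 1397 UMIs.

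Of 31 other genes of the sodium pump list (other beta subunits, FXYD regulators, NKAIN proteins, related pumps, chloride and sodium partners, and kinases and ligases that act on them), 18 had enough UMIs to be compared. As for all genes, UMIs were summed over the classes, so a gene could pass through the class in which it was then called. Passing and being called are therefore not independent, and enrichment of the list in a class was not tested. In marginal nuclei 5 of the 18 (27.8%) were called higher, in intermediate 3 (16.7%), in basal 1, in root 2, in spindle 2 and in Reissner's membrane nuclei 3, beside the shares of all genes given above. Those called in marginal nuclei were Slc12a2, Bsnd, Stk39, Sgk1 and Atp2b1. Slc12a2, which encodes NKCC1, stood at 8908 CPM (8823 to 8994) for MethFix and 9403 (9308 to 9499) for RNAlater in marginal nuclei, a log2 ratio to the other classes of 3.22 and 3.27. Bsnd, which encodes barttin, an accessory subunit of chloride channels, had log2 ratios of 5.42 and 4.53. Stk39, the kinase SPAK that activates NKCC1, had 1.64 and 1.66. Atp2b1, a plasma membrane calcium pump, had 2.25 and 2.23. Sgk1, a kinase that regulates sodium transport, had 1.35 and 1.21 in marginal and 1.39 and 1.50 in root nuclei.

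FXYD proteins are small membrane proteins that bind the pump and tune its affinities. Fxyd1, which encodes phospholemman, stood at 33.7 CPM (27.8 to 40.4) for MethFix and 28.5 (22.6 to 35.4) for RNAlater in intermediate nuclei, a log2 ratio of 2.97 and 2.35, and had no UMI in Reissner's membrane nuclei, which allows up to 9.31 and 7.53. Fxyd3 stood in intermediate nuclei at 109 (98.1 to 120.7) and 145 (131 to 159), with log2 ratios of 3.14 and 2.92. Fxyd6 was instead highest in root nuclei, at 109 (73.7 to 156) and 123 (87.3 to 169), with 3.70 and 4.57. No FXYD gene was called in marginal nuclei, where Fxyd2, the regulator known from the kidney, had a level of 3.38 in MethFix and 3.55 in RNAlater. Fxyd2, Fxyd4, Fxyd5 and Fxyd7 had too few UMIs to be compared. Fxyd7 had 40 UMIs in intermediate nuclei of each library, 2 in MethFix marginal nuclei and none in the others.

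The NKAIN genes encode membrane proteins that interact with the Atp1b1 protein. Nkain1 was called in intermediate nuclei, the class highest in Atp1b1, at 26.0 CPM (20.8 to 32.0) for MethFix and 34.8 (28.3 to 42.3) for RNAlater, with log2 ratios of 3.97 and 4.08. Nkain2 and Nkain3 were called in Reissner's membrane nuclei, where Nkain2 stood at 8207 (7928 to 8495) and 8334 (8081 to 8594) and Nkain3 at 868 (779 to 965) and 931 (848 to 1021). The calcium pump gene Atp2b2 was called in the same class at 1596 (1474 to 1725) and 1595 (1485 to 1710.5), and Atp2b4 in spindle nuclei at 141 (99.3 to 194) and 165 (113 to 233). Wnk4, a kinase upstream of SPAK, was called in basal nuclei at 287 (265 to 311) and 287 (265 to 310), and Nedd4l, a ubiquitin ligase for sodium channels, in spindle nuclei at 1895 (1732 to 2070) and 1894 (1706 to 2098).

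**Figure D5:**
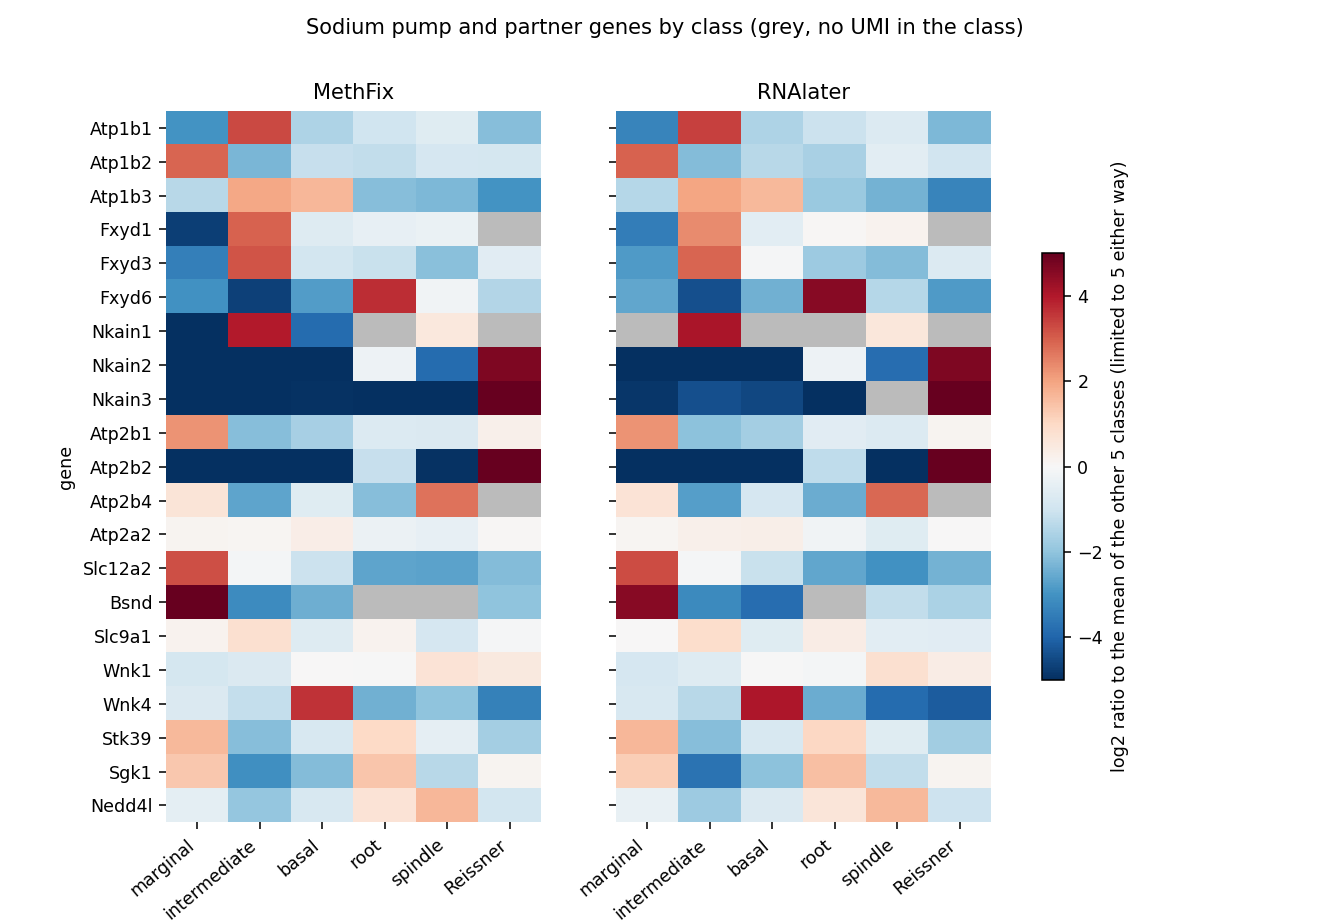
Log2 ratio of the level in a class to the mean of the other 5 classes for the 3 members and the 18 partner genes compared, in MethFix (left) and RNAlater (right), with red for higher, blue for lower, grey where the class had no UMI and colours limited to 5 either way. Atp1b2 shares the marginal column with Slc12a2 (3.22 in MethFix) and Bsnd (5.42), and Atp1b1 the intermediate column with Fxyd1, Fxyd3 and Nkain1.

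Genes with the profile most like each member over the classes were ranked by the lower of the 2 libraries' Pearson correlations of log2(CPM + 10) over 7 classes, the 6 above and a neuron-like cluster of 71 MethFix and 97 RNAlater nuclei. That cluster had median depths of only 1323 and 1099 UMIs and held Spp1, a marginal gene, at 1663 and 3657 CPM. Nearest to Atp1b1 were Scrg1 (0.96), Met (0.95), Fxyd1 (0.94), Gpr137b (0.94) and Tecpr1 (0.93), of which Met is a naming marker of intermediate nuclei. Nearest to Atp1b2 were Rgs4 (0.98), Spp1 (0.97), Ube2o (0.96), Fam169a (0.96) and Dnase1 (0.96), and nearest to Atp1b3 were Nid1 (0.9497), Iffo1 (0.947), Rab11fip5 (0.94), Gsta4 (0.94) and Klf9 (0.94). Among 11196 genes compared, 8 reached a correlation of 0.95 with Atp1b2, 2 with Atp1b1 and none with Atp1b3. All points of 1 library share its free RNA, while their depths differ. Median depths ran from 1323 UMIs in neuron-like to 4552 in marginal nuclei of MethFix, and from 1099 to 6088.5 in RNAlater.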

How the data were processed

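The authors deposited, for each of the 2 libraries, a matrix with the UMI count of every gene in every barcode, made with Cell Ranger 3.0.1 on the mm10 (GRCm38) genome and filtered to barcodes called as nuclei. From these counts, nuclei with fewer than 200 genes, more than 8000 counts or a mitochondrial share above 10% were dropped. Scrublet doublets (expected rate 0.1) were then removed, both as the study's methods describe. Genes found in under 3 nuclei were left out for doublet detection and clustering only, and the levels used the counts of all genes. Each library was clustered alone with scanpy 1.11.5 (4000 variable genes without the 40 pump genes listed, 30 components, 10 neighbours, Leiden resolution 1 for MethFix and 1.5 for RNAlater). Clusters were named from 17 marker lists by a mean log2 score, and names rebuilt in this way can differ from the study's. Counts were summed per class and intervals taken with scipy 1.17.1. The 2-fold call and the Poisson intervals were tested on simulated counts, while the filtering, clustering and naming were not. The genes described were the members, the pump list (some of whose genes are not reported here) and, for each member, the genes with the most similar profile. The members and all lists were chosen with earlier results of these data known. Of the alternatives, 36 were planned and 2 were added after seeing the data, and edgeR 4.0.16 (TMM factors) served only as one of them.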

Additional observations from a re-analysis of the deposited data

How the results depend on the processing

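The 2 matrices share barcodes and stand for 1 sample, so their precision is that of counting alone. Shared barcodes were paired only to compare their counts and classes. As each preservation method had a single library, no test between the methods was possible. Of 1499 values over 124 results under 36 planned and 2 added alternatives, 1277 stayed within their interval and 222 moved. These totals include values that an alternative could not move, such as shares under TMM factors or a class outside a dropped cluster. They also include single clusters of a class, which are parts of it and not other ways of processing. The 36 shares of nuclei with a UMI were compared with their thinned values, and 34 of them moved. The totals are therefore no measure of robustness. A change of direction was counted only for the 185 values that were ratios, and 0 of them changed direction. The class with the highest level of each beta subunit was the same in all 33 runs that gave one. Each run was 1 alternative in 1 library, and the libraries share most barcodes. Values from barcodes only in RNAlater were not obtained, as too few were kept. The cause of the following moves was not tested beyond how each alternative is built, and ratios are log2 values of a class against the mean of the other 5 unless another comparator is named.

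With the other 5 classes pooled, the MethFix ratios were 3.99 for Atp1b1 in intermediate, -3.96 for Atp1b1 in marginal, 3.29 for Atp1b2 in marginal, 1.50 for Atp1b3 in intermediate and -2.34 for Atp1b3 in marginal nuclei, and the RNAlater ratios, in the same order, were 4.06, -4.15, 3.33, 1.46 and -2.34. Against all other named classes, MethFix gave -2.69 for Atp1b1 in marginal, 2.16 for Atp1b2 in marginal, 1.42 for Atp1b3 in intermediate and -1.59 for Atp1b3 in marginal nuclei, and RNAlater gave, in the same order, -2.81, 2.05, 1.21 and -1.74. With barcodes only in MethFix, where root nuclei were too few and the mean was over the other 4 classes, the ratios were 3.63 for Atp1b1 in intermediate, -2.29 for Atp1b1, 2.68 for Atp1b2 and -1.20 for Atp1b3 in marginal nuclei, and the shares of beta subunit UMIs were 81.1% for Atp1b1 in intermediate and 77.1% for Atp1b2 in marginal nuclei. With barcodes in both matrices, MethFix gave -3.19 for Atp1b1 and a share of 84.6% for Atp1b2 in marginal nuclei.

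With clusters named by the highest score alone, MethFix marginal nuclei gave -2.27 for Atp1b1, -1.20 for Atp1b3 and a share of 77.7% for Atp1b2. A mitochondrial limit of 5% gave -3.18 for Atp1b1 and 84.7% for Atp1b2 there, and no such limit -3.16 and 84.6%. In RNAlater no mitochondrial limit gave -3.07 for Atp1b1, 3.24 for Atp1b2 and a share of 85.8% for Atp1b2 in marginal nuclei. With no upper limit on counts, Atp1b2 in marginal nuclei had a ratio of 3.13 and a share of 86.2% in MethFix, and 3.27 and 87.3% in RNAlater. Means over nuclei gave 2.73 for Atp1b2 in MethFix marginal nuclei, 2.75 for it in RNAlater ones and 3.22 for Atp1b1 in RNAlater intermediate nuclei. Thinning to 1000 UMIs gave a ratio of 2.58 for Atp1b2 in MethFix marginal nuclei, a share of 80.5% for Atp1b1 in MethFix intermediate nuclei, and ratios of 2.21 and -1.18 for Atp1b3 in RNAlater intermediate and marginal nuclei. TMM factors gave 3.51 for Atp1b1 in MethFix intermediate nuclei, and pump genes kept among the variable genes gave a share of 81.6% for Atp1b1 in RNAlater intermediate nuclei.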

Other observations

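The beta subunits were also found outside the 6 classes. In the neuron-like cluster (71 MethFix and 97 RNAlater nuclei), Atp1b1 stood at 536 and 730.1 CPM, Atp1b2 at 520 and 962 and Atp1b3 at 360 and 358, beside the Spp1 levels given above. A MethFix cluster of 84 nuclei led by genes of cilia (Dnah12, Spag16), none with a barcode found in both matrices, had Atp1b1 at 938, Atp1b2 at 475 and Atp1b3 at 239. It was left unnamed although it scored 3.51 on the marginal list, with UMIs of 9 of 9 markers, and 3.38 on the intermediate list, as its leading genes held none of these markers and included those of cilia (Dnah5, Dnah9, Hydin). Each library had an unnamed cluster with Cdh6, Tenm2 and Robo2 among its leading genes (38 MethFix and 41 RNAlater nuclei). Atp1b1 stood there at 151 CPM (80.4 to 258) on 13 UMIs in MethFix and 365 (269 to 484) on 48 in RNAlater. The RNAlater cluster was led by Kcnk2, and whether both hold the same nuclei was not tested. In RNAlater, Atp1b3 stood at 361 in 52 bone-like and 539 in 17 fibrocyte-like nuclei. These clusters were described after their values were seen, and none of them was compared with a test.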
